A study of Homo sapiens with 6 samples.

Results

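Interferon beta and the nucleic acid sensing pathway that switches it on were followed in U251 glioblastoma cells after knockdown of TRAF2. The 10 genes were taken by name from the 23002 genes of the deposited table: IFNB1, IFIH1, TLR3, EIF2AK2, ZBP1, MAVS, TBK1, IKBKE, IRF3 and IRF7. All 10 carry the term defense response to virus in the GO annotation of that table. They were taken for their place in this pathway.

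U251 is an established human glioblastoma line. Control cells (sh-NC, 3 samples) carried a non-targeting lentivirus, and knockdown cells (sh-TRAF2, 3 samples) carried a lentivirus with a short hairpin RNA (shRNA) against TRAF2. Both groups were thus transduced lines kept after puromycin selection, and no untransduced cells were compared. Messenger RNA was sequenced, and the level of each gene was given in FPKM, a fragment count scaled both to the length of the transcript and to the depth of the library. The labels call the samples biological replicates without saying whether they came from separate transductions or cultures, so the p-values measure the spread between these samples. In such bulk RNA, fewer cells with a transcript and less transcript per cell cannot be told apart.

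Double-stranded RNA in the cytoplasm is sensed by the helicases MDA5 (encoded by IFIH1) and RIG-I (encoded by DDX58), which signal through the mitochondrial adaptor MAVS. TLR3 senses it in endosomes. Both routes reach the kinases TBK1 and IKKε (encoded by IKBKE), which phosphorylate the transcription factors IRF3 and IRF7, and these act with NF-κB and ATF2/JUN on the IFNB1 enhancer. Secreted interferon beta then signals through its receptor, JAK kinases and STAT proteins to the interferon-stimulated genes, among which are several of the sensors themselves. PKR (encoded by EIF2AK2) binds double-stranded RNA and halts translation, and ZBP1 senses Z-form nucleic acid and triggers cell death. TRAF2 is a ubiquitin ligase and adaptor best known from the tumour necrosis factor receptor. The paper also gives it a part in antiviral signalling by RIG-I-like receptors, the family of RIG-I and MDA5. Other members of the TRAF family work in the MAVS and TLR3 routes.

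The published shRNA targets against TRAF2 are shown because they define the perturbation, and the source does not name which of them was sequenced. Matched to GENCODE release 29 (GRCh38), each occurred in coding transcripts of 1 gene only, TRAF2, which is read from the plus strand. Positions are chr9:136916579-136916599 for sh-TRAF2#1 and chr9:136920480-136920500 for sh-TRAF2#2, both within an exon and entirely in coding sequence.
sh-TRAF2#1: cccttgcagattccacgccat
sh-TRAF2#2: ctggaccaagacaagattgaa

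TRAF2 had 1811, 2220 and 1925 reads in the sh-NC samples and 383, 373 and 394 reads in the sh-TRAF2 samples. Its log2 fold change was -2.27 (standard error 0.0791, limma adjusted p = 1.16e-06), as the labels imply. Reads on genes, recovered from the steps of the FPKM values, ranged from 33999558 to 36823562 per sample. Vimentin, CD44, SOX2 and SOX9 of the glioma line markers were expressed, while S100B and OLIG2 were near 0. The summed FPKM of the 9 glioma markers was 1460 to 1531 in sh-NC and 1811 to 1856 in sh-TRAF2. Nestin (NES) rose by 1.12 on the log2 scale (limma adjusted p = 1.91e-05) and VIM by 0.35. GFAP had a log2 fold change of 1.11 (limma adjusted p = 0.0382), but its groups overlapped. It met the filter on low values only through sh-TRAF2, with means of 0.467 FPKM in sh-NC and 1.18 FPKM in sh-TRAF2. The part of these shifts in the results below was not tested. No blood or endothelial marker passed the filter on low values. Of 11 such markers 6 were measured, with a summed FPKM of 0.641 to 0.924 in sh-NC and 0.416 to 0.780 in sh-TRAF2, and PTPRC, the pan-leukocyte marker, had at most 1 read.

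The ligand IFNB1 and the RNA sensor genes IFIH1 and EIF2AK2 were higher after TRAF2 knockdown. The adaptor MAVS, the endosomal sensor TLR3 and the kinase TBK1 were lower. Of the 10 members, 8 were expressed enough to be tested (mean FPKM of at least 0.5), and 6 of these passed a limma adjusted p of 0.05, where 44.6% of all 11870 tested genes did. IFNB1, IFIH1 and EIF2AK2 were higher, against 23.7% of all tested genes, and TLR3, MAVS and TBK1 were lower, against 20.9%. The median log2 fold change was -0.01 over the 8 tested members and 0.02 over all tested genes. In 6 of the 8 tested members the groups did not overlap, as was so for 55.5% of all tested genes. With an absolute log2 fold change above 1 required as well, IFNB1 alone passed, while 0.986% of tested genes passed as higher and 0.733% as lower.

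**Figure D1:**
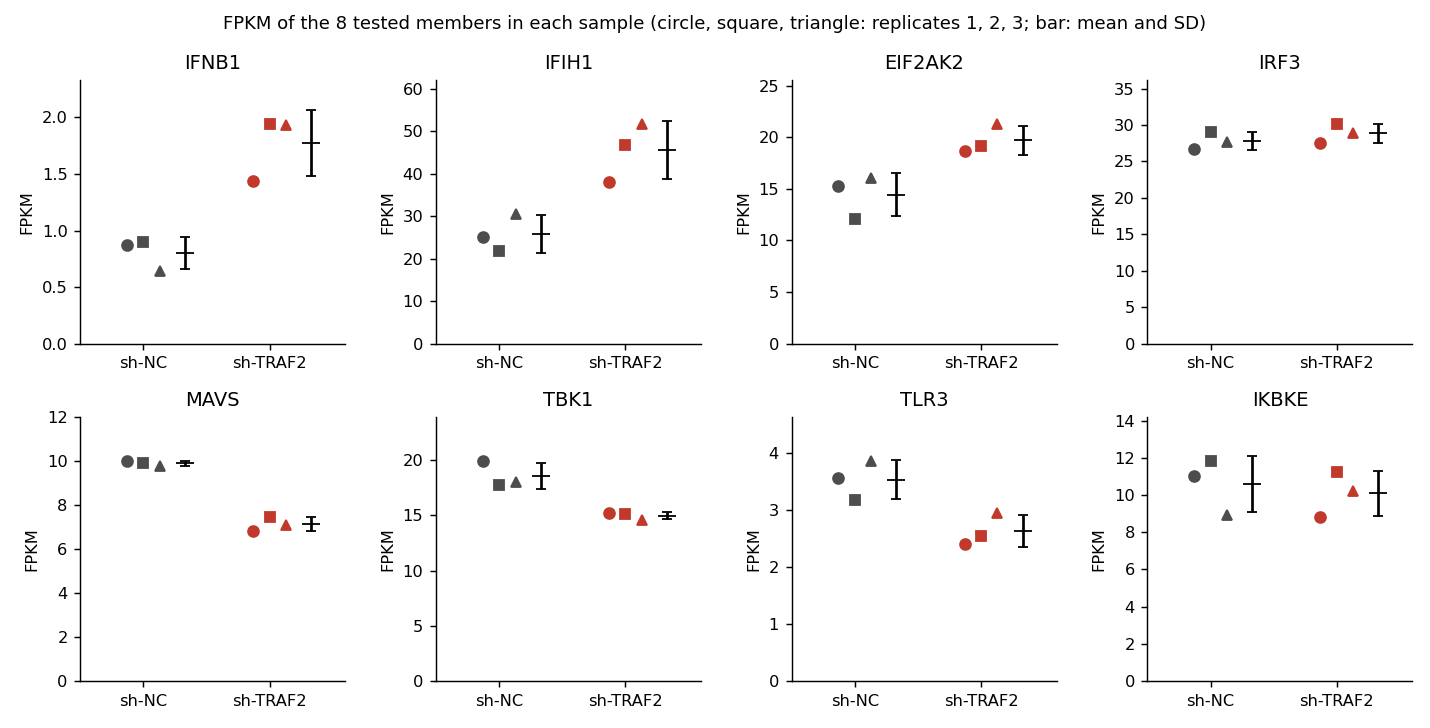
FPKM of the 8 tested members in each sample, with 1 panel per gene, a linear axis from 0, a symbol per replicate, and a bar for the mean and SD of each group. IFNB1, IFIH1 and EIF2AK2 are higher in every sh-TRAF2 sample, TLR3, MAVS and TBK1 lower, and IKBKE and IRF3 overlap.

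IFNB1, the ligand, is an intronless gene on chromosome 9 that is silent in most resting cells. Its level was 0.870, 0.899 and 0.641 FPKM in the controls and 1.44, 1.95 and 1.94 FPKM in the knockdown samples, in the order of replicates 1, 2 and 3, as everywhere here. All 3 knockdown samples lay above all 3 controls. The mean went from 0.804 ± 0.141 to 1.77 ± 0.290 FPKM (SD, n = 3), 2.21-fold higher, and the log2 fold change was 1.05 (standard error 0.168, 95% interval 0.67 to 1.44, limma adjusted p = 0.00144). Only 1.55% of tested genes had a log2 fold change at least as far from 0, and 112 genes were at least as much higher. An exact two-sided permutation test over the 20 assignments of samples to groups gave p = 0.1 for every member whose groups were separated, which is the smallest p it can give.

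The level of IFNB1 was low and its counting error is wide. It rested on 26, 27 and 20 reads in sh-NC and on 42, 56 and 57 reads in sh-TRAF2. Exact Poisson 95% intervals were 17.0 to 38.1, 17.8 to 39.3 and 12.2 to 30.9 reads in sh-NC. They were 30.3 to 56.8, 42.3 to 72.7 and 43.2 to 73.9 reads in sh-TRAF2. Thus sh-TRAF2 replicate 1 overlapped the controls within counting error, while replicates 2 and 3 lay above all of the control intervals. These intervals cover counting error only. With a pseudocount of 1 in place of 0.1, which pulls low genes towards 0, the log2 fold change was 0.62 and still passed. It was below the stricter fold limit in 3 of the 6 fits with 1 sample left out, at 0.92 when sh-NC replicate 3 was left out, 0.98 for sh-TRAF2 replicate 2 and 0.99 for sh-TRAF2 replicate 3.

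Apart from IFNE, the other interferon ligands were barely detected. Of 19 type I and III ligands besides IFNB1, 5 were measured and 14 were not analysed here. IFNE, an interferon known from the reproductive tract, was the only one tested, at a level near that of IFNB1 in the controls. It had 33, 31 and 47 reads in sh-NC and 11, 20 and 24 reads in sh-TRAF2. Its log2 fold change was -0.82 (standard error 0.265, limma adjusted p = 0.0351), opposite in sign to that of IFNB1. IFNE met the filter only through the controls, with a mean of 0.691 FPKM in sh-NC and 0.358 FPKM in sh-TRAF2. With no filter on low values its call was lost. The call was lost without sh-NC replicate 1 (adjusted p = 0.0625), sh-NC replicate 3 (0.113), sh-TRAF2 replicate 1 (0.0856) or sh-TRAF2 replicate 2 (0.0583) in limma. IFNA5, IFNA10, IFNL1 and IFNL3 had 1 read each over all 6 samples.

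IFIH1, which encodes the RNA sensor MDA5, had the highest mean FPKM of the members in the knockdown cells. It had 25.1, 21.7 and 30.5 FPKM in sh-NC and 38.1, 46.8 and 51.7 FPKM in sh-TRAF2. The lowest knockdown sample lay above the highest control. The means were 25.8 ± 4.42 and 45.5 ± 6.92 FPKM (SD, n = 3), a 1.77-fold rise, with a log2 fold change of 0.82 (standard error 0.137, 95% interval 0.51 to 1.13, limma adjusted p = 0.00178). At 2786 to 6500 reads per sample its counting error was small beside the spread between samples. Without sh-NC replicate 2, the lowest control, the log2 fold change was 0.70.

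EIF2AK2, encoding PKR, rose less. Its FPKM was 15.3, 12.0 and 16.03 in sh-NC and 18.6, 19.2 and 21.3 in sh-TRAF2. The groups were separate, with sh-NC replicate 2 the lowest of all 6 samples. From 14.5 ± 2.11 to 19.7 ± 1.42 FPKM (SD, n = 3) the change was 1.36-fold, with a log2 fold change of 0.45 (standard error 0.104, 95% interval 0.22 to 0.69, limma adjusted p = 0.00831). Leaving out sh-NC replicate 2 gave 0.33. The gene shares 35 of its 10753 exonic bases with GPATCH11 and 401 with the pseudogene AC007899.1, both on the other strand.

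TLR3, the endosomal receptor for double-stranded RNA, moved the other way. It had 3.56, 3.17 and 3.85 FPKM in sh-NC and 2.40, 2.54 and 2.93 FPKM in sh-TRAF2, so every knockdown sample was below every control. The mean fell by 25.6%, from 3.53 ± 0.343 to 2.62 ± 0.278 FPKM (SD, n = 3). The log2 fold change was -0.41 (standard error 0.102, 95% interval -0.65 to -0.18, limma adjusted p = 0.0115).

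ZBP1, the sensor of Z-form nucleic acid, was at the edge of detection. It had 2, 0 and 1 reads in sh-NC and 0, 2 and 2 reads in sh-TRAF2. A count of 0 allows up to 3 reads (one-sided limit), so no difference was detectable at this depth and no fold is given. When genes with low values were kept in the fit, its limma adjusted p was 0.806.

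MAVS, the mitochondrial adaptor that passes on the signal of MDA5 and RIG-I, had the smallest standard error of the 6 members that passed. It had 10.01, 9.92 and 9.81 FPKM in sh-NC and 6.85, 7.49 and 7.10 FPKM in sh-TRAF2. The controls differed among themselves far less than from the knockdown samples. Its mean fell by 27.9%, from 9.91 ± 0.103 to 7.15 ± 0.321 FPKM (SD, n = 3), and its log2 fold change was -0.47 (standard error 0.0522, 95% interval -0.59 to -0.35, limma adjusted p = 0.000234).

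TBK1, the kinase that phosphorylates IRF3, had 19.9, 17.8 and 18.0 FPKM in sh-NC and 15.2, 15.1 and 14.6 FPKM in sh-TRAF2. All knockdown samples were lower than all controls. The mean fell by 19.4%, from 18.6 ± 1.17 to 14.97 ± 0.323 FPKM (SD, n = 3), with a log2 fold change of -0.31 (standard error 0.0541, 95% interval -0.43 to -0.18, limma adjusted p = 0.00232). An antisense gene, AC135279.3, covers 702 of its 4762 exonic bases in GENCODE release 29, and whether strand was used in counting is not given, so a share of these reads is uncertain.

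IKBKE, encoding the related kinase IKKε, had 11.02, 11.8 and 8.95 FPKM in sh-NC and 8.80, 11.3 and 10.2 FPKM in sh-TRAF2. The groups overlapped. The log2 fold change of -0.07 had a standard error of 0.117 and a 95% interval of -0.34 to 0.20 (limma adjusted p = 0.659), and its sign turned when either sh-NC replicate 2 (0.02) or sh-TRAF2 replicate 1 (0.03) was left out.

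IRF3, the transcription factor activated by these kinases, had the highest mean FPKM of the members in control cells. It had 26.7, 29.1 and 27.7 FPKM in sh-NC and 27.6, 30.2 and 28.9 FPKM in sh-TRAF2, again with overlapping groups. The log2 fold change of 0.05 had a 95% interval of -0.06 to 0.17 (limma adjusted p = 0.406). BCL2L12 on the other strand shares 734 of the 3794 exonic bases of IRF3, and its mean level was 5.74 FPKM.

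IRF7, the interferon-inducible partner of IRF3, was almost absent. It had 0 reads in each sh-NC sample and 1, 5 and 1 reads in the sh-TRAF2 samples. These counts did not overlap. The two-sided exact Poisson 95% interval of the 5 reads was 1.62 to 11.7, and a count of 0 allows up to 3 reads by the one-sided limit. The limits of single samples thus overlapped. IRF7 was below the filter, so a difference between the groups was not tested in the main fit, and no fold is given. Fitted with the low genes kept, IRF7 had a limma adjusted p of 0.172.

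**Figure D2:**
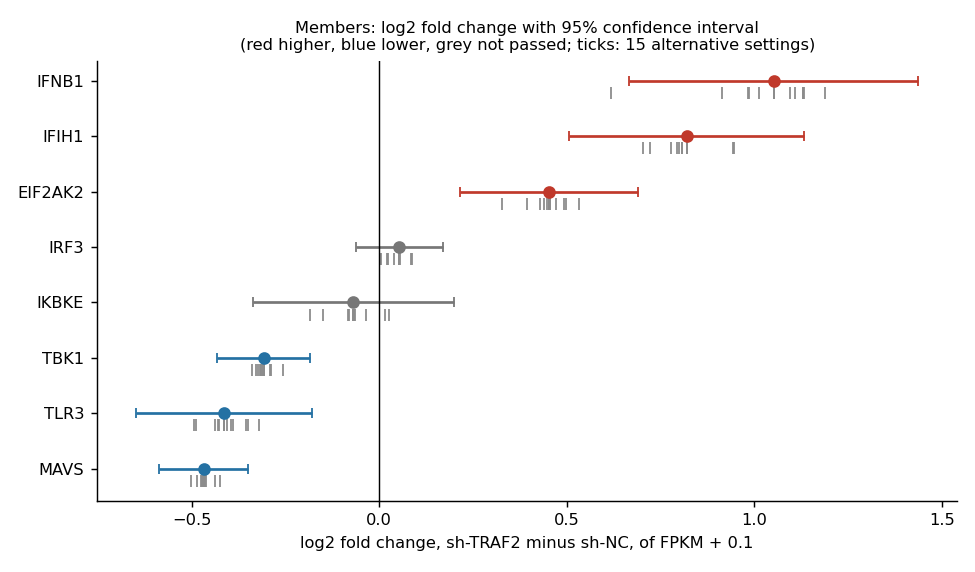
Log2 fold change of the 8 tested members, sh-TRAF2 minus sh-NC, as points with 95% intervals from limma, beside a line at 0. The intervals of IFNB1, IFIH1 and EIF2AK2 lie above 0, those of TLR3, MAVS and TBK1 below 0, and those of IKBKE and IRF3 span it.

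Because FPKM is scaled to transcript length, the members can also be ranked by level. In sh-NC the order of mean FPKM was IRF3 (27.8), IFIH1 (25.8), TBK1 (18.6), EIF2AK2 (14.5), IKBKE (10.6), MAVS (9.91), TLR3 (3.53), IFNB1 (0.804), ZBP1 (0.00816) and IRF7 (0). The samples of IRF3 and IFIH1, of IKBKE and MAVS, and of ZBP1 and IRF7 overlapped in that order. In sh-TRAF2 the order was IFIH1 (45.5), IRF3 (28.9), EIF2AK2 (19.7), TBK1 (14.97), IKBKE (10.1), MAVS (7.15), TLR3 (2.62), IFNB1 (1.77), IRF7 (0.0329) and ZBP1 (0.0113), and only the last pair overlapped. By mean FPKM, IFIH1 thus passed IRF3, and EIF2AK2 passed TBK1, between the groups. This order depends on the lengths used for scaling, which come from unnamed gene models. The values imply 10390 bases for EIF2AK2 and 3448 for TBK1. By reads alone, EIF2AK2 was above TBK1 and IFIH1 above IRF3 in every sample of both groups.

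The opposite movements changed the proportions of transcripts within each sample. These ratios were chosen after the values were seen and are given as a description. The FPKM ratio of IFIH1 to its adaptor MAVS was 2.51, 2.19 and 3.11 in sh-NC and 5.56, 6.25 and 7.28 in sh-TRAF2. It was 2.44-fold higher on average, with separate groups. For DDX58, encoding RIG-I, to MAVS it was 4.84, 3.82 and 5.26 in sh-NC and 9.57, 9.95 and 11.5 in sh-TRAF2, 2.23-fold higher. The ratio of the scaffold TANK to the kinase TBK1 that it binds was 0.982, 1.07 and 0.983 in sh-NC and 1.72, 1.83 and 1.78 in sh-TRAF2. Its groups were far apart relative to their spread. By contrast, the ratio of TBK1 to IKBKE overlapped between the groups (two-sided exact permutation test, p = 0.2).

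**Figure D3:**
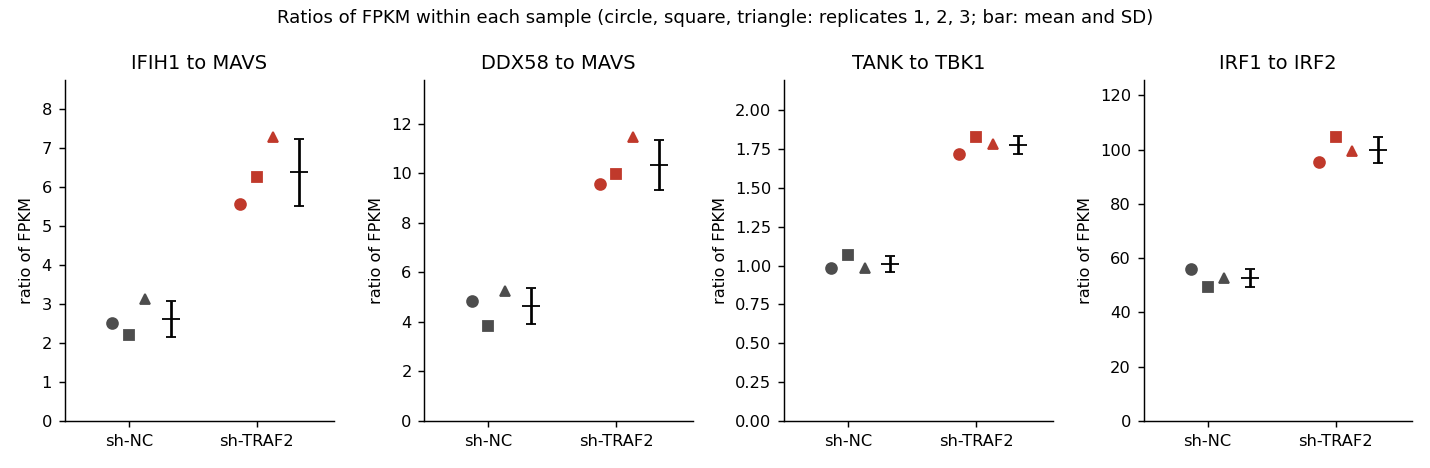
FPKM ratios of IFIH1 to MAVS, DDX58 to MAVS, TANK to TBK1 and IRF1 to IRF2 in each sample, with linear axes from 0, a symbol per replicate and a bar for the mean and SD. In all 4 panels every sh-TRAF2 sample lies above every sh-NC sample.

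The wider pathway was read from lists of genes with known roles, leaving the 10 members out. Of 127 such genes measured, 112 were tested, of which 40 (35.7%) were higher and 26 (23.2%) were lower at a limma adjusted p under 0.05, beside the 23.7% and 20.9% of all tested genes given above. Their median log2 fold change was 0.06. The lower count fell to between 17 and 23 with any 1 sample left out, lowest without sh-TRAF2 replicate 3. Interferon-stimulated genes supplied 14 of the 40.

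**Figure D4:**
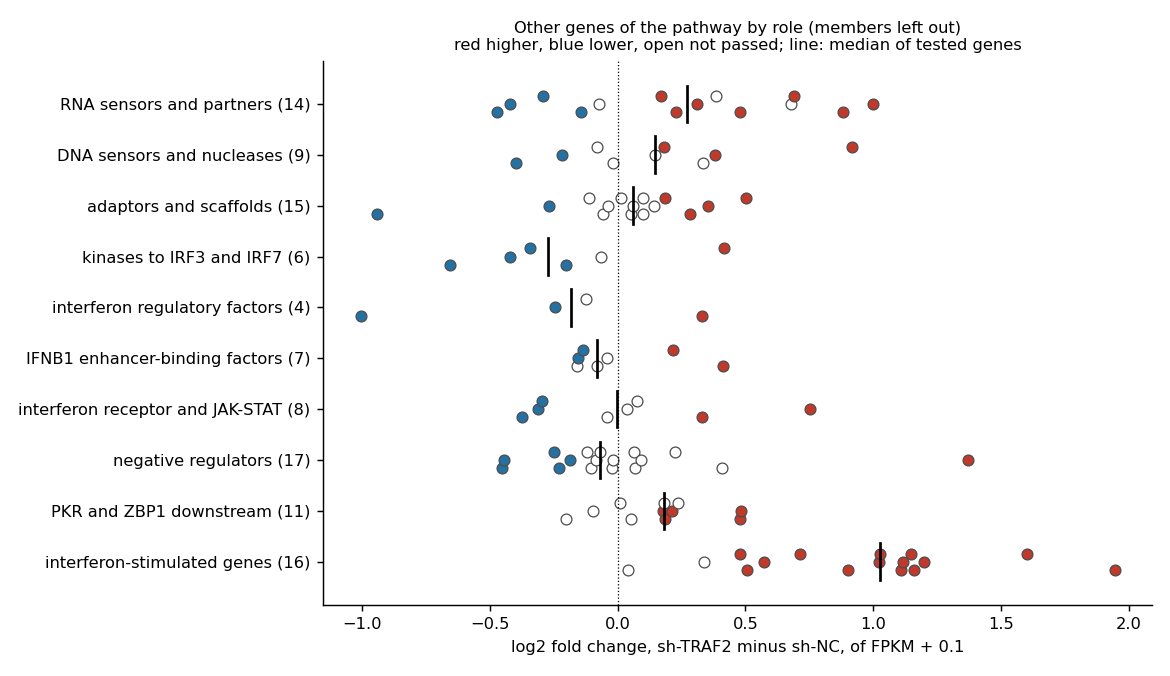
Log2 fold change, sh-TRAF2 minus sh-NC, of every tested gene of each pathway list, red where higher and blue where lower at a limma adjusted p under 0.05, open where not passed, with a line at the list's median. The interferon-stimulated genes have a median of 1.03 and the kinases, of which 1 is red, of -0.27.

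Among the other RNA sensors and their partners, 7 of 14 tested genes were higher, 4 were lower and 3 did not pass, with a median log2 fold change of 0.27. OAS3, which makes the oligoadenylate messenger that activates RNase L, rose from 20.6 ± 3.12 to 37.8 ± 3.78 FPKM (log2 fold change 0.88, limma adjusted p = 0.000497). ZC3HAV1, the zinc finger antiviral protein, rose from 36.9 ± 0.983 to 45.8 ± 1.94 FPKM (0.31, adjusted p = 0.000727). DDX58, named here although the naming rule did not select it, had 46.0 ± 7.15 and 73.8 ± 8.002 FPKM (0.69, adjusted p = 0.00193). These rises concern sensors or effectors of foreign RNA. Both directions met in this list, however. TRIM25, the ubiquitin ligase that assists RIG-I, fell from 123 ± 6.91 to 88.3 ± 5.496 FPKM (-0.47, adjusted p = 0.000321). ADAR, the enzyme that edits double-stranded RNA, fell from 86.4 ± 2.92 to 70.5 ± 4.63 FPKM (-0.29, adjusted p = 0.0025).

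The DNA sensors gave no common direction, with 3 of 9 tested genes higher, 2 lower and 4 not passed (median log2 fold change 0.15). CGAS, the cytoplasmic DNA sensor, had 9, 2 and 2 reads in sh-NC and 1, 1 and 2 reads in sh-TRAF2, too few to test. Its partner STING1 was expressed at 7.71 ± 0.796 and 7.59 ± 0.386 FPKM and did not pass (limma adjusted p = 0.872). RNASEH2A, the catalytic subunit of RNase H2, rose from 32.9 ± 1.26 to 62.3 ± 1.94 FPKM (log2 fold change 0.92, adjusted p = 4.02e-06). It shares 1123 exonic bases with THSD8 on the same strand, whose mean level was 0.0539 FPKM. The subunit RNASEH2B instead fell from 8.31 ± 0.183 to 7.13 ± 0.215 FPKM (-0.22, adjusted p = 0.00876). DDX41, a helicase proposed as a DNA sensor, rose from 25.5 ± 0.488 to 28.999 ± 1.54 FPKM (0.18, adjusted p = 0.0153). DNASE2, the lysosomal nuclease, fell from 77.9 ± 1.04 to 59.1 ± 2.24 FPKM (-0.40, adjusted p = 0.000114).

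Of the adaptors and scaffolds besides MAVS, 4 of 15 tested genes were higher, 2 were lower and 9 did not pass (median log2 fold change 0.06). TANK, which links TRAF proteins to TBK1 and IKKε, rose from 18.8 ± 0.934 to 26.6 ± 0.972 FPKM (log2 fold change 0.50, limma adjusted p = 0.00015). TRADD, an adaptor shared by the tumour necrosis factor receptor and the MAVS complex, rose from 6.60 ± 0.259 to 8.46 ± 0.374 FPKM (0.35, adjusted p = 0.00161). UNC93B1, the chaperone that carries TLR3 and other nucleic acid receptors to endosomes, fell from 3.97 ± 0.327 to 2.02 ± 0.231 FPKM (-0.94, adjusted p = 0.000212), so that the receptor and its chaperone were both lower. TRAF6, a ubiquitin ligase of Toll-like receptor signalling, fell from 5.80 ± 0.0203 to 4.80 ± 0.0422 FPKM (-0.27, adjusted p = 0.0038).

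The kinases leaned lower. Of 6 tested besides TBK1 and IKBKE, 1 was higher, 4 were lower and 1 did not pass, with a median log2 fold change of -0.27. Of all tested genes, 23.7% were higher and 20.9% were lower. The 4 lower became 3 with no filter on low values, and with any 1 sample other than sh-NC replicate 2 left out. CHUK, encoding IKKα, fell from 7.28 ± 0.223 to 5.41 ± 0.0629 FPKM (log2 fold change -0.42, limma adjusted p = 0.000401). MAP3K7, encoding TAK1, fell from 13.7 ± 0.0662 to 10.8 ± 0.396 FPKM (-0.34, adjusted p = 0.000629). IRAK1, a kinase downstream of MYD88, was the exception and rose from 186 ± 4.63 to 248 ± 6.08 FPKM (0.42, adjusted p = 4.58e-05).

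Among the other interferon regulatory factors, IRF2, a repressor that competes with IRF1 for the same sites, had the largest change. It had 1057, 1087 and 1104 reads in sh-NC and 478, 484 and 547 reads in sh-TRAF2. The level fell from 3.40 ± 0.0451 to 1.64 ± 0.112 FPKM (log2 fold change -1.01, standard error 0.0808, limma adjusted p = 4.72e-05), close to the stricter fold limit, which it missed without sh-NC replicate 2, sh-TRAF2 replicate 1 or sh-TRAF2 replicate 2. IRF1, by contrast, had 179 ± 9.11 and 164 ± 14.1 FPKM and did not pass (adjusted p = 0.152). The ratio of IRF1 to IRF2 was 55.8, 49.3 and 52.6 in sh-NC and 95.4, 105 and 99.5 in sh-TRAF2. IRF9, the DNA-binding subunit of the interferon-activated ISGF3 complex, rose from 30.2 ± 2.72 to 37.9 ± 2.77 FPKM (0.33, adjusted p = 0.00864). IRF5 fell from 2.69 ± 0.144 to 2.26 ± 0.0630 FPKM (-0.24, adjusted p = 0.0332), a call that was lost in limma without any of sh-NC replicate 1 (0.115), sh-NC replicate 2 (0.0638), sh-TRAF2 replicate 1 (0.0795), sh-TRAF2 replicate 2 (0.0833) or sh-TRAF2 replicate 3 (0.0581). In all, 1 of these 4 tested factors was higher, 2 were lower and 1 did not pass (median -0.18).

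The factors that bind the IFNB1 enhancer beside the IRFs went both ways. Of 7 tested, 2 were higher, 2 were lower and 3 did not pass (median log2 fold change -0.08). JUN rose from 170 ± 5.40 to 226 ± 4.81 FPKM (log2 fold change 0.41, limma adjusted p = 6.04e-05), and the NF-κB subunit RELA from 50.3 ± 2.03 to 58.4 ± 0.560 FPKM (0.22, adjusted p = 0.00292). NFKB1, encoding another NF-κB subunit and its precursor, fell from 54.8 ± 1.54 to 49.2 ± 0.957 FPKM (-0.16, adjusted p = 0.0101). The coactivator EP300 fell from 14.3 ± 0.470 to 13.03 ± 0.328 FPKM (-0.13, adjusted p = 0.0455), and among the fits with 1 sample left out only that without sh-NC replicate 3 kept its call.

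Downstream of the ligand, the receptor and JAK-STAT genes were divided, with 2 of 8 tested genes higher, 3 lower and 3 not passed (median log2 fold change -0.0027). IRF9, described above, was among those that rose. JAK1, a receptor-bound kinase, fell from 57.0 ± 1.10 to 45.9 ± 1.15 FPKM (-0.31, adjusted p = 0.000297), and IL10RB, a chain of the type III interferon receptor, from 13.9 ± 0.481 to 10.7 ± 0.325 FPKM (-0.37, adjusted p = 0.000524).

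Negative regulators of the pathway mostly did not pass: 11 of 17 tested genes did not, 5 were lower and 1 was higher (median log2 fold change -0.07). The 5 lower became 2 without sh-TRAF2 replicate 3, and 3 without sh-NC replicate 1, sh-NC replicate 2 or sh-TRAF2 replicate 2. The one that rose, USP18, is itself interferon-induced and removes ISG15 from proteins. It went from 3.91 ± 1.17 to 10.3 ± 2.87 FPKM (log2 fold change 1.37, limma adjusted p = 0.00271). PCBP2, which promotes degradation of MAVS, fell from 146 ± 3.06 to 125 ± 2.79 FPKM (-0.23, adjusted p = 0.00085). SOCS3, an inhibitor of cytokine receptor signalling, fell from 22.6 ± 3.61 to 16.4 ± 1.16 FPKM (-0.45, adjusted p = 0.00876).

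Genes downstream of PKR and ZBP1 included 5 higher, 0 lower and 6 not passed of 11 tested (median log2 fold change 0.18), and without sh-NC replicate 2 there was 1 lower. EIF2S1, the translation factor subunit that PKR phosphorylates, rose from 28.9 ± 1.23 to 40.4 ± 1.81 FPKM (log2 fold change 0.48, limma adjusted p = 0.00015). PPP1R15B, which recruits the phosphatase that reverses that mark, rose from 33.2 ± 0.991 to 46.3 ± 1.12 FPKM (0.48, adjusted p = 5.76e-05). Substrate and phosphatase partner were thus higher in sh-TRAF2, as was the kinase transcript EIF2AK2, and a link among these changes was not tested.

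The interferon-stimulated genes respond to interferons of type I and III. Of 16 tested genes, 14 were higher, 0 were lower and 2 did not pass, with a median log2 fold change of 1.03. Of these, 9 also passed the stricter fold limit, namely ISG15, OASL, RSAD2, IFI6, CXCL10, IFITM1, MX1, IFIT1 and MX2, with log2 fold changes of 1.02 to 1.95. The count of 9 was 3 without sh-NC replicate 2, and among sh-TRAF2 samples left out it was 4 without replicate 3 and 6 without replicate 2. With no filter on low values the 14 became 10 and the 9 became 6. At a pseudocount of 1 the 9 also became 6. IFIT1, MX1 and MX2 lost even the plain call in some settings, with limma adjusted p up to 0.0836, 0.0792 and 0.086. ISG15, a ubiquitin-like modifier, went from 152 ± 21.2 to 327 ± 36.4 FPKM (limma adjusted p = 0.000115). The median of the 16 genes, relative to each gene's sh-NC mean on the log2 scale, was 0.03, -0.34 and 0.31 in the controls. In the knockdown samples it was 0.60, 1.08 and 1.25. Every knockdown sample lay above every control on this measure, and the controls were themselves spread over a range about as wide as the distance from their mean to the lowest knockdown sample.

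Single libraries moved with these genes. Replicate 2 of sh-NC was the lowest control for 16 of the 16 interferon-stimulated genes, and replicate 3 of sh-TRAF2 was the highest knockdown sample for 15 of 16. Without sh-NC replicate 2 the count of higher genes was 12, and without sh-TRAF2 replicate 3 or replicate 2 it was 10. By point values IFNB1 had another order, with replicate 3 its lowest control and replicate 2 its highest. The controls had only 26, 27 and 20 reads with overlapping counting intervals, so their order was not resolved. Among the knockdown samples IFNB1 was lowest in replicate 1, as was the median of the interferon-stimulated genes. IFIH1 and EIF2AK2, which are interferon-inducible, were lowest in sh-NC replicate 2 and highest in sh-TRAF2 replicate 3, as most of the interferon-stimulated genes were. TLR3, which was lower after knockdown, also had its lowest control in replicate 2 and its highest knockdown sample in replicate 3.

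**Figure D5:**
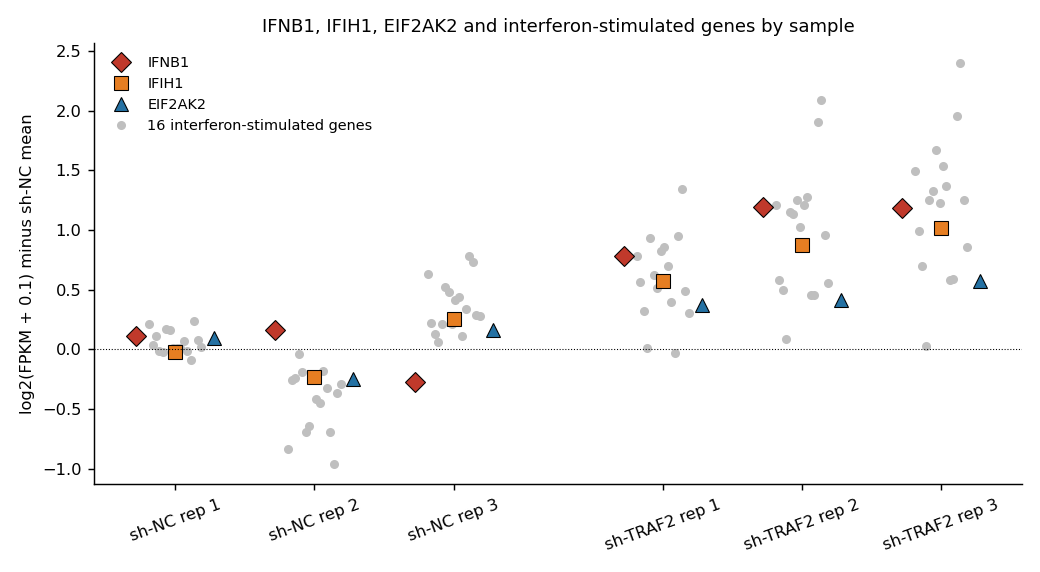
Log2(FPKM + 0.1) of IFNB1, IFIH1, EIF2AK2 and the 16 interferon-stimulated genes (grey) in each of the 6 samples, relative to the sh-NC mean of each gene. The sh-TRAF2 points of IFNB1 are all above its sh-NC points, and the interferon-stimulated genes are lowest in sh-NC replicate 2.

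The promoters of IFNB1, IFIH1 and EIF2AK2 are shown because these are the members that rose. Promoter sequences (300 bases from upstream to just past the transcription start, RefSeq, GRCh38.p14) were matched for 7 of the 10 members and not for IRF3, IRF7 and ZBP1. They were searched on both strands for AANNGAAA, a core bound by IRF proteins, for its paired form of interferon-stimulated response elements, which is GAAA, any 2 bases and GAAA, and for a κB-type motif bound by NF-κB, which is GGGA, any 2 bases and TTCC. Every match to the paired form also holds the core, so these motifs are not counted independently. Capitals mark the core and κB motifs in IFNB1 (chr9:21077893-21078192, minus strand), and the core and paired motifs in IFIH1 (chr2:162318635-162318934, minus strand) and EIF2AK2 (chr2:37156931-37157230, minus strand).
IFNB1: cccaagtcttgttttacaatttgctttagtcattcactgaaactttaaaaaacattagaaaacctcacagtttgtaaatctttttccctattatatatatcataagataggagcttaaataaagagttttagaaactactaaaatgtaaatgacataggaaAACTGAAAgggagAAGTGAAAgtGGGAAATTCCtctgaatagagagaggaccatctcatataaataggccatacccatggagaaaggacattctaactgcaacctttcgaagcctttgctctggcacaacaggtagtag
IFIH1: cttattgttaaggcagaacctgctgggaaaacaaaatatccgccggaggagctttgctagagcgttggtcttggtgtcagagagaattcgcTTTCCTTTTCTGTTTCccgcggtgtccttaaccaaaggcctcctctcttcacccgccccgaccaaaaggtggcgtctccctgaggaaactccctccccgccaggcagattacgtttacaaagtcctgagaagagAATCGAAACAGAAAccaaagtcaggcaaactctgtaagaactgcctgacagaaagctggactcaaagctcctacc
EIF2AK2: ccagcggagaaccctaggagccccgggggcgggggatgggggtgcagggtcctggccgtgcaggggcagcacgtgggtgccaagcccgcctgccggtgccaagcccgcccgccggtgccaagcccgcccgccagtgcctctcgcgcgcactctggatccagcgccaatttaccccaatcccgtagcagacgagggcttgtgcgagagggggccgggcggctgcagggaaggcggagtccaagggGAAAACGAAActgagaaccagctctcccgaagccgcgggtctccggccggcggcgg

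In the IFNB1 promoter the core occurred as AACTGAAA at -89 and AAGTGAAA at -76 from the start, followed by GGGAAATTCC at -66, and the paired form did not occur. IFIH1 held the paired form at -159 and -153 on the reverse strand and at -21 on its own strand, and a κB-type match at -76 on the reverse strand that is not in capitals. EIF2AK2 held 1 paired form, at -6. TLR3, which was lower, also held 1, at -4 on the reverse strand, while MAVS and TBK1 held none of the motifs in this window.

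Over the 7 members the core was found in 5, the paired form in 3 and the κB-type motif in 2. Among all 27305 promoters the shares were 23.2%, 3.65% and 1.63%, and among the 9785 promoters of tested genes they were 16.4%, 3.03% and 1.62%. Of 13 interferon-stimulated genes with a promoter, 12 held the core, 11 the paired form and 1 the κB-type motif. These matches describe the sequence and are not evidence of binding in U251 cells.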

How the data were processed

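RNA of U251 cells was sequenced in 3 sh-NC and 3 sh-TRAF2 samples, grouped by their labels. OE Biotech prepared the libraries and computed the values, and the authors deposited 1 table of FPKM with GO terms per gene. The submitters' processing notes name HISAT2, HTSeq and, for R, version 3.2.0, without their order, and DESeq2. The genome build, annotation and use of strand behind the FPKM are not given in the sources used here. FPKM carries no common total, and its length scaling rests on unnamed gene models.

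From these values, log2(FPKM + 0.1) was compared between groups with limma 3.58.1 in R 4.3.3 (lmFit, eBayes with trend, two-sided) for the 11870 genes averaging 0.5 FPKM or more, with Benjamini-Hochberg adjustment over all of them. A gene passed at an adjusted p under 0.05, and the stricter call also required an absolute log2 fold change above 1. Fold changes on this scale understate the change of low genes. FPKM steps gave whole reads for 100% of the 23002 genes, with the lowest possible count for the 2643 genes seen in 1 sample only. Tested on simulated data, recovery was exact for 97.5% of 1894 genes, and the fit was tested on simulated data as well. Depth was 33999558 to 36823562 reads per sample, and intervals of single counts are exact Poisson intervals.

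The members, gene lists and tests were chosen with earlier results of these data known. Named are all members and, from each list, the genes past the stricter call and up to 2 in each direction with the smallest adjusted p. A gene picked by this rule is not reported here. The ratios, the printed sequences, DDX58, STING1, CGAS and IRF1 were chosen after their values were seen. Alternatives were limma-voom on recovered reads, eBayes with no trend, quantile normalization, TPM, a replicate block, pseudocounts of 0.01 and 1, filters of 0 and 1 FPKM, and leaving out each sample. Tables and figures were made in Python 3.11.15 with pandas 2.3.3, numpy 2.4.6, matplotlib 3.10.9 and scipy 1.17.1. The mitochondrial RNAs listed as a sign of RNA quality, and the sequencing of TNF-α-treated cells, were not analysed here.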

Additional observations from a re-analysis of the deposited data

How the results depend on the processing

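Of 120 comparisons of the 8 tested members over 15 settings, 118 had the direction and the call reported above. The exceptions were both IKBKE, which turned to 0.02 without sh-NC replicate 2 and to 0.025 without sh-TRAF2 replicate 1, and ranged from -0.18 to 0.03 with 1 sample left out. The log2 fold change of IFNB1 was 0.92 to 1.19 with 1 sample left out, with a lowest value of 0.62 over all settings at a pseudocount of 1. Members higher and lower stayed at 3 and 3 in each of those settings. With an absolute log2 fold change above 1 required as well, they were 1 and 0, the genes of the pathway lists were 10 higher and 1 lower, and all genes were 117 higher and 87 lower, fewer by construction. With 1 sample left out, all genes ranged from 2206 to 2729 higher and from 1956 to 2327 lower, and the pathway lists from 33 to 44 higher and from 17 to 23 lower. With no filter on low values the pathway lists had 33 higher and 16 lower, where more genes enter the adjustment. Over the same settings, 600 of 644 comparisons of the 43 other named genes had the same direction and call and 44 lost the call, with 0 reversals. IFNB1 has too few reads per sample, and IRF7 and ZBP1 almost none, for small differences to be seen.

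The replicate block changed no member's call and gave 2912 genes higher and 2539 lower, 3 and 3 members, and 41 and 25 pathway list genes. Deviations of same-numbered samples from their group means had correlations of -0.0812, 0.0722 and 0.0728. Replicates 2 and 3 of sh-NC correlated best with their own number, and replicate 1 did not. Correlations this small cannot show whether same-numbered samples share more than a number.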

Other observations

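The tested genes whose pattern over the 6 samples was most like that of IFNB1 were E2F2, NEXN-AS1, CGN, EGOT and PDGFRL, by the root mean square difference of log2(FPKM + 0.1) after each gene's sh-NC mean was subtracted. That difference was 0.133 for E2F2, a cell cycle transcription factor, and 0.146 for PDGFRL, the fifth. E2F2 had 1.33, 1.32 and 1.16 FPKM in sh-NC and 2.46, 2.56 and 2.91 FPKM in sh-TRAF2. None of the 5 is an interferon-stimulated gene of the list used here.

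Genes near IFNB1 on chromosome 9 were measured for 6 of the 8 listed. Of 5 tested, 1 was higher, 1 was lower and 3 did not pass, with a median log2 fold change of -0.06. FOCAD rose by 0.26 on the log2 scale (limma adjusted p = 0.0276) and MTAP had a log2 fold change of -0.16 (adjusted p = 0.0361). FOCAD lost its call without sh-NC replicate 2, sh-NC replicate 3, sh-TRAF2 replicate 2 or sh-TRAF2 replicate 3, and MTAP without sh-NC replicate 1, sh-NC replicate 3, sh-TRAF2 replicate 2 or sh-TRAF2 replicate 3.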
